A study of Homo sapiens with 21 samples.

Results

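HNRNPK-bound RNA was described here for 9 genes of the intermediate filament family: the type I keratins *KRT18* and *KRT19*, the type II keratins *KRT7*, *KRT8* and *KRT80*, the type III protein gene *VIM*, and the lamin genes *LMNA*, *LMNB1* and *LMNB2*. The members were taken by gene name from the clusters of 4 PAR-CLIP libraries, and each of the 9 had at least 1 cluster. Together they held 422 of the 778762 clusters and 14728 of the 18558215 reads in clusters, among 18322 gene names. PAR-CLIP locates contacts of a protein with RNA, since a crosslinked 4-thiouridine (4SU) leaves a T-to-C change in the read, and a cluster is a stretch of overlapping reads with such T-to-C changes. The cells were MDA-MB-231, a long-used human cell line from a triple-negative breast cancer, either parental or with *KRT19* knocked out (KO) by CRISPR/Cas9; whether the KO cells are 1 clone is not given in the sources used here. HNRNPK was precipitated from the cytoplasm and the nucleus of both after treatment with 4SU and ultraviolet irradiation, with an antibody that the labels name as recognising HNRNPK/J. The study's fractionation protocol takes the cytosol after lysis with NP-40 and the nuclear fraction by extracting the washed pellet with Triton X-100, though it is not tied to the nuclear PAR-CLIP libraries by name. Each of the 4 conditions has 1 library, so no difference below has a replicate check, no test between conditions was run, and every interval given is a 95% interval of counting error only. The intervals take each read as an independent count, so they would be too narrow where reads are copies of the same molecule.

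Intermediate filaments are built from coiled-coil proteins that pair and bundle without bound nucleotide. Type I keratins pair with type II keratins in the cytoplasm of epithelial cells, KRT8 most often with KRT18 or KRT19, while VIM forms filaments by itself and is typical of mesenchymal cells and of carcinoma lines such as MDA-MB-231. Lamins line the inner face of the nuclear envelope: *LMNA* gives lamin A and lamin C by alternative processing of its 3' end, and *LMNB1* and *LMNB2* encode the B-type lamins. HNRNPK is an RNA-binding protein of nucleus and cytoplasm whose KH domains prefer stretches of C.

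The libraries held 5551612 (parental cytoplasm), 6216226 (*KRT19* KO cytoplasm), 3537577 (parental nucleus) and 3252800 (*KRT19* KO nucleus) reads in clusters, and the smallest cluster in each had 5 reads. Reads counted as unique made up 45.6% of the reads in the *KRT19* KO cytoplasm, 30.9% in the parental cytoplasm, and 19.99% and 19.0% in the nuclei of parental and KO cells. Of reads in exons and introns, 70.8% were exonic in the *KRT19* KO cytoplasm and 44.8% in the parental cytoplasm, so the cytoplasmic libraries themselves differed in this respect, and the nuclei less so, with 11.04% in parental and 14.7% in KO cells. Of the genes expected in MDA-MB-231, *CD44*, *EGFR* and *AXL* had at least 919 reads in each library. Of those not expected, *PGR* had no cluster, *CDH1* had 6 reads in 1 library, and *ESR1* had 26 to 77 reads. All values below are relative to the reads of the same library, so a change in the total amount of RNA bound to HNRNPK cannot be seen. RNA levels were not analysed here, and a change of binding and a change of RNA level cannot be told apart.

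Sequences under clusters with many reads for their gene are shown first, because runs of C are counted in a part of what follows. They are the sequences of the RNA strand as deposited, written with t for u, and equal to GRCh37 at their positions. Clusters in untranslated regions (UTRs) or over a start codon are shown as a window of 30 nt around the position of the highest read density, the others whole. Capitals mark runs of at least 3 C.
*KRT18* intron 1 (chr12:53343454-53343480, plus): cataaccaCCCaaCCCCtactccaccg
*KRT19* intron 3 (chr17:39681030-39681056, minus): acctCCCagggctgaagactcttttat
*KRT7* intron 6 (chr12:52637305-52637338, plus): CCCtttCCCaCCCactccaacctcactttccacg
*KRT8* intron of long transcripts (chr12:53305821-53305852, minus): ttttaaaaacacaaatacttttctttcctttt
*KRT80* 3'UTR (chr12:52563777-52563806, minus): ttccttCCCtccttcactctcctctCCCCt
*VIM* start codon (chr10:17271452-17271481, plus): taccgcaggatgttcggcggCCCgggcacc
*LMNA* 3'UTR (chr1:156109118-156109147, plus): tcatctatctcaatcctaatttctcctCCC
*LMNB1* intron 1 (chr5:126127051-126127085, plus): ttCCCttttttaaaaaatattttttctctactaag
*LMNB2* 3'UTR, near the stop codon (chr19:2430878-2430907, minus): CCCacactcctcatccacacacctttcttt
*LMNB2* 3'UTR, next site (chr19:2430674-2430703, minus): cttttcaatCCCaCCCCactcctcatctca
*LMNB2* 3'UTR, last site (chr19:2428172-2428201, minus): cttttttgtacaacactccaataaacattt
*LMNB2* intron 2 (chr19:2442127-2442165, minus): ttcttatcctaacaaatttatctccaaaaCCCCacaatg

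In the cluster with the most reads of each gene, CCC was present for 8 of the 9 members, the exception being *KRT8*. Over all 18322 genes, 53.3% of such clusters held CCC. The printed *KRT18*, *KRT7*, *KRT80* and next *LMNB2* sites hold more than 1 such run, and the *KRT8* and last *LMNB2* sites hold none. The last *LMNB2* site holds AATAAA, the usual polyadenylation signal.

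The share of reads on the 9 genes together was 803 rpm (reads per 1000000 reads in clusters; interval 779 to 827) in the parental cytoplasm, 800 (777 to 822) in the *KRT19* KO cytoplasm, 1041 (1007 to 1075) in the parental nucleus and 498 (474 to 523) in the *KRT19* KO nucleus. The cytoplasmic shares of both cell lines lay within each other's intervals, and the share in the *KRT19* KO nucleus was the lowest of the 4. *LMNB2* held 34.0% of the members' reads over all libraries, *KRT80* 22.8%, *LMNA* 13.9% and *LMNB1* 12.1%. The keratins of simple epithelia held less, with 6.33% for *KRT7*, 4.05% for *KRT8*, 1.84% for *KRT18* and 0.0815% for *KRT19*, and *VIM* held 4.92%.

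**Figure D1:**
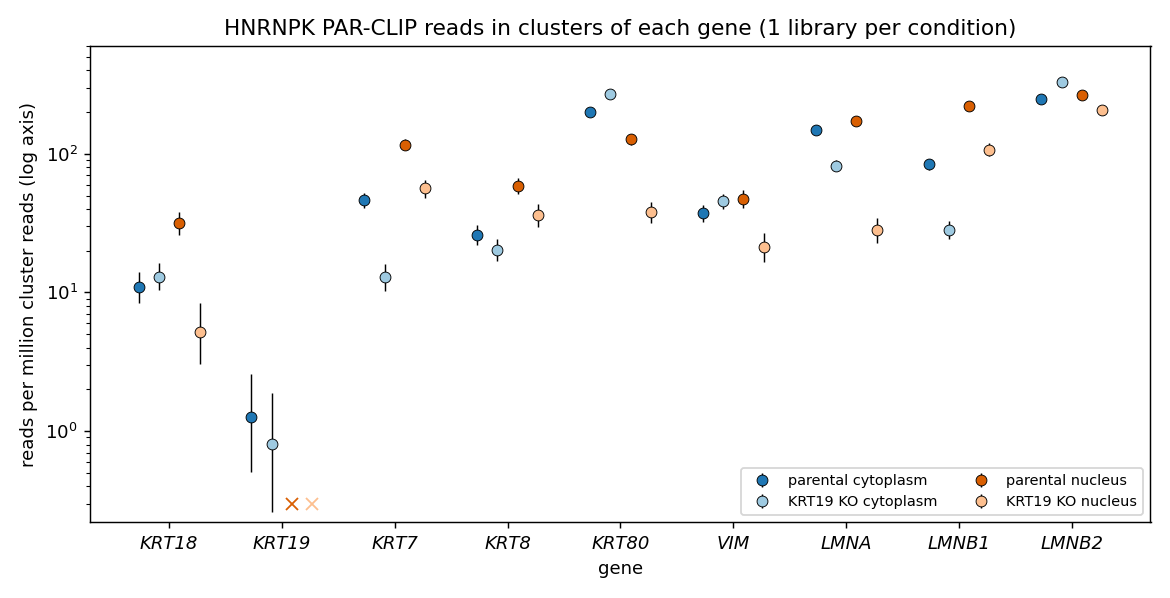
Rpm (log axis) of each gene in each library, 1 point per library with the exact 95% Poisson interval of its count; crosses at the bottom mark *KRT19* in the nuclear libraries, where it had no cluster. All 8 genes with a value in every library lie lower in the *KRT19* KO nucleus than in the parental nucleus.

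Per kb of gene span, *KRT80* and *LMNB2* led in both cytoplasmic libraries. In the parental cytoplasm *KRT80* had 8.67 rpm per kb (8.17 to 9.20) and *LMNB2* 8.43 (7.99 to 8.89), and these intervals overlap. *VIM* followed with 3.99, then *KRT18* with 2.72, *LMNA* with 2.60 and *KRT7* with 2.35, and among these 4 each overlapped its neighbour. *LMNB1* had 1.40, *KRT8* 0.495 and *KRT19* 0.269, and only the last pair overlap. In the parental nucleus the order was *LMNB2* (9.004 rpm per kb), *KRT18* (7.84), *KRT7* (5.94), *KRT80* (5.55), *VIM* (5.05), *LMNB1* (3.68), *LMNA* (2.998) and *KRT8* (1.11), and each of the first 4 overlaps the next. In the *KRT19* KO nucleus *LMNB2* stood alone at the top with 7.04 rpm per kb (6.51 to 7.59), followed by *KRT7* with 2.86 (2.46 to 3.31). In the ranking of all genes with a cluster by reads, *LMNB2* lay between percentile 94.1 and 96.2 in all 4 libraries. *KRT80* lay at percentile 93.3 and 95.01 in the parental and KO cytoplasm, 87.4 in the parental nucleus and 66.6 in the KO nucleus, and *LMNA* went from 91.4 in the parental nucleus to 60.9 in the KO nucleus. Clusters were denser on most members than on the median protein-coding gene: *VIM* had 9.62, 10.7, 8.55 and 6.42 clusters per 10 kb of span, *LMNB2* 5.80, 6.82, 6.14 and 4.43 and *KRT80* 6.52, 6.95, 6.08 and 3.91, while that gene, among those with a cluster, had 1.83, 1.77, 1.73 and 1.61. *LMNA* had 2.43, 2.09, 3.83 and 1.22, the last below the median gene on this span. Its span of 57.5 kb reaches upstream of the canonical transcript, which held 52 of its 55 clusters. Values of *LMNA* per kb, here and in the orders above, are lowered by that span. The span of *KRT8* is 52.8 kb, because long transcripts start near *KRT18*, which lowers its value per kb.

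The knocked-out gene itself can hardly be judged from these data. *KRT19* had 1 cluster of 7 reads in the parental cytoplasm (1.26 rpm, 0.507 to 2.60) and 1 cluster of 5 reads in the *KRT19* KO cytoplasm (0.804 rpm, 0.261 to 1.88), and no cluster in either nucleus in the tables analysed here. Both clusters lie in intron 3 of 5, at chr17:39681030-39681056 and chr17:39680979-39681003, do not overlap, and rest on 1 unique read each, with all reads carrying a T-to-C change. The reads neither check the genotype nor allow a ratio. In rank, *KRT19* stood at percentile 9.92 of genes with a cluster in the parental cytoplasm and 3.12 in the *KRT19* KO cytoplasm.

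*KRT18*, which encodes the type I partner of KRT8, had 61, 81, 112 and 17 reads in the parental cytoplasm, *KRT19* KO cytoplasm, parental nucleus and *KRT19* KO nucleus. The *KRT19* KO nucleus is the low library and rests on 1 cluster. Of its 271 reads, 262 were intronic, 180 of them in intron 1 of 6, and the remaining 9 formed a 5'UTR cluster in the *KRT19* KO cytoplasm. All 11 clusters of *KRT18* held CCC. The intron 1 site at chr12:53344039-53344065 had 41 reads in the *KRT19* KO cytoplasm, 35 in the parental nucleus and 17 in the *KRT19* KO nucleus, with no cluster in the parental cytoplasm. The neighbouring site printed above had 36 reads in the parental cytoplasm and 43 in the parental nucleus, and no cluster in the KO libraries.

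*KRT7*, a type II keratin of simple and glandular epithelia, had 257, 80, 413 and 183 reads in the same order of libraries. Both KO libraries were lower than the parental library of their fraction. Of its 933 reads, 866 were intronic, and 528 of these lay in 10 clusters of intron 6 of 8. The printed intron 6 site, which opens with 3 C tracts, had 211 reads in the parental nucleus, 55 in the parental cytoplasm and 31 in the *KRT19* KO cytoplasm. In the *KRT19* KO nucleus no cluster lay there, the nearest *KRT7* cluster being 152 nt away with 10 reads, and the library's top *KRT7* cluster was another intron 6 site, chr12:52638901-52638924, with 82 reads. The 3'UTR of *KRT7* is 161 nt long in the canonical transcript and held 1 cluster, of 21 reads, in the *KRT19* KO nucleus.

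*KRT8*, the type II partner of KRT18 and KRT19, had 145, 126, 208 and 117 reads, with the parental nucleus highest. Its reads were spread thinly, over 59 clusters of which the largest had 56 reads, and 560 of its 596 reads were intronic. Only 9 of the 59 clusters lay within the canonical transcript, and the other 50 lay upstream of it, nearly all in introns of long transcripts that reach into *KRT18*, so most *KRT8* clusters are intronic only by that annotation. No cluster lay in the 3'UTR, which has 237 nt. The largest cluster, in the parental nucleus, has no CCC and had a T-to-C change in 5 of its 56 reads (8.93%), with 9 unique reads. *KRT8* and *KRT18* have many processed pseudogenes, and how reads that fit several copies were placed is not given in the sources used here, so their counts are uncertain.

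*KRT80*, a type II keratin of epithelial cells, had 1108, 1675, 452 and 123 reads. Both cytoplasmic libraries were above both nuclei. Of its 3358 reads, 2853 (85.0%) lay in the 3'UTR, which is 2402 nt long, and only 414 in introns. The reads of the cytoplasmic libraries gathered in the middle of this 3'UTR. The site with the most reads, its centre 1123 nt after the stop codon, had 603 reads in the parental cytoplasm, 805 in the *KRT19* KO cytoplasm and 157 in the parental nucleus. Next to it, at 1291 nt, were 180 and 284 reads in the parental and KO cytoplasm, and at 1395 nt, the printed site, 119 and 171 reads, with 48 in the parental nucleus. The *KRT19* KO nucleus had none of these 3 clusters, and in it the whole 3'UTR held 9 reads from 1 unique read. All 123 reads of *KRT80* in that library carried a T-to-C change.

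*VIM*, the mesenchymal intermediate filament gene, had 207, 282, 167 and 69 reads. It differed from *KRT80* in where they lay: no cluster was annotated to its 3'UTR of 322 nt, and of its 725 reads 315 were in coding sequence or over the start or stop codon, 74 in the 5'UTR and 336 in introns. In the *KRT19* KO cytoplasm, 67 reads covered the start codon, at chr10:17271414-17271481, and 54 a 5'UTR site just upstream. The parental cytoplasm had 20 reads in the 5'UTR at another position and no cluster over the start codon, but 62 reads over the stop codon. That stop codon cluster, at chr10:17279241-17279306, also reaches into the 3'UTR. A coding site in exon 8 of 10, at chr10:17277846-17277880, had 44 reads in parental cytoplasm and 53 in that of *KRT19* KO cells. In the nuclei 162 of the 167 parental reads and all 69 KO reads were intronic. Over the 4 libraries intron 3 held 136 *VIM* reads, more than any other intron of the gene.

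*LMNA* had 831, 511, 610 and 92 reads. The parental libraries were above the KO library in both fractions. The gene had the only locus found in all 4 libraries, a 3'UTR site whose centre is 245 nt after the stop codon, with 694 reads in the parental cytoplasm, 392 in the *KRT19* KO cytoplasm, 258 in the parental nucleus and 27 in the *KRT19* KO nucleus. In rpm this is 125, 63.1, 72.9 and 8.30. This site made up 83.5% and 76.7% of the *LMNA* reads in the parental and KO cytoplasm and 42.3% and 29.3% in the nuclei. It lies in the last exon, exon 12, which lamin A transcripts use and lamin C transcripts do not. Another 13 reads of the *KRT19* KO cytoplasm, annotated as 3'UTR, lie at chr1:156107611-156107639 in intron 10 of the canonical lamin A transcript. The intronic reads lay mostly in intron 1, with 408 reads in 27 clusters.

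*LMNB1*, the B-type lamin gene with the longest span here (60.4 kb), had its reads mostly in introns. It had 468, 175, 786 and 348 reads, of which 93.9% were intronic over all libraries, and each KO library was below the parental library of its fraction. Its 3'UTR held 54 reads in the parental cytoplasm, 17 in the *KRT19* KO cytoplasm, 13 in the parental nucleus and none in the *KRT19* KO nucleus. Intron 1 of 10 held 903 reads in 36 clusters and intron 5 held 447 in 26. The printed intron 1 site had 145 reads in the parental nucleus, 57 in the parental cytoplasm and 27 in the *KRT19* KO nucleus, and no cluster in the *KRT19* KO cytoplasm. CCC was found in 28.6% of its 98 clusters, the lowest share among the members.

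*LMNB2* had the most reads, 1372, 2035, 934 and 671, and its levels of 247, 327, 264 and 206 rpm varied less between libraries than those of *KRT80* or *LMNA*. Its 3'UTR of 2745 nt held 1290, 1429, 286 and 118 of these reads. The site 22 nt after the stop codon had 183 reads in the parental cytoplasm, 415 in the *KRT19* KO cytoplasm and 73 in the parental nucleus. At 225 nt the next site had 636 reads in the parental cytoplasm, 161 in the parental nucleus and 109 in the *KRT19* KO nucleus, but no cluster in the *KRT19* KO cytoplasm, where the nearest cluster was 133 nt away. The last site, centred 21 nt before the end of the canonical transcript and covering its AATAAA, had 312 reads in parental cytoplasm and 615 in that of KO cells, and no cluster in either nucleus. The intron 2 site showed another pattern, with 511 reads in the *KRT19* KO cytoplasm, 449 in the parental nucleus and 405 in the *KRT19* KO nucleus, and no cluster in the parental cytoplasm, where the nearest cluster was 553 nt away with 6 reads. This site supplied 511 of the 593 intronic *LMNB2* reads in the *KRT19* KO cytoplasm, against 73 intronic reads in all in the parental cytoplasm.

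**Figure D2:**
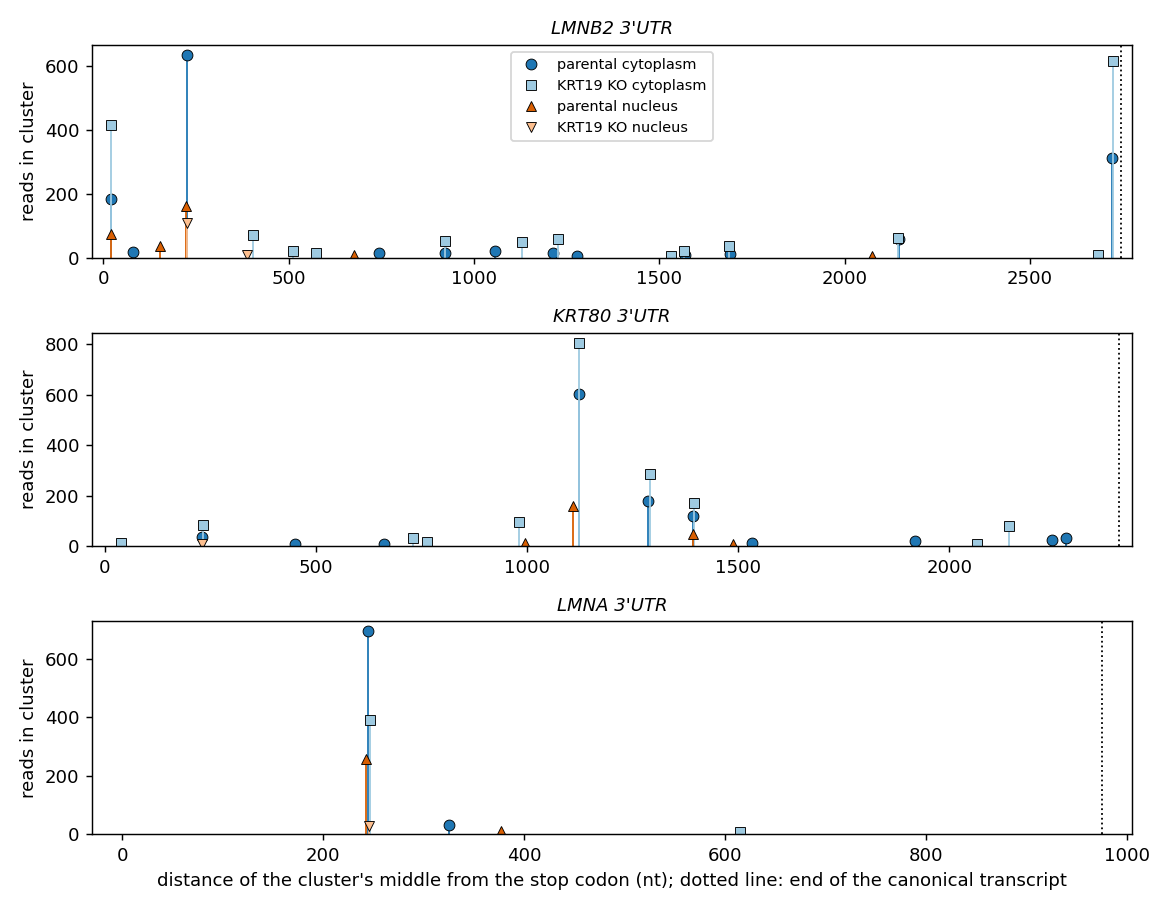
Reads in each cluster (y axis) against the distance of its middle from the stop codon in nt (x axis) for the 3'UTRs of *LMNB2*, *KRT80* and *LMNA*; each marker is 1 cluster of 1 library and the dotted line is the end of the canonical transcript. Reads gather at 22, 225 and 2724 nt in *LMNB2*, at 1123 to 1395 nt in *KRT80* and at 245 nt in *LMNA*.

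The position of the reads set the members apart from each other. Exonic reads (UTR, coding, start or stop codon) made up 75.3% (74.0 to 76.5%) of all member reads in the parental cytoplasm, 75.7% (74.4 to 76.8%) in the *KRT19* KO cytoplasm, 22.7% (21.3 to 24.1%) in the parental nucleus and 10.8% (9.33 to 12.4%) in the *KRT19* KO nucleus. In the whole libraries 44.8%, 70.8%, 11.04% and 14.7% of reads in exons and introns were exonic, so the members lay above the library in both cytoplasms and the parental nucleus and below it in the *KRT19* KO nucleus. Without the top cluster of each member gene and library, the direction turned in both KO libraries. The members then lay below the library in the KO cytoplasm and just above it in the KO nucleus. The 3'UTR supplied 7516 of the 14728 member reads and introns 6589, although introns held 319 of the 422 clusters and 3'UTRs 70. In the parental cytoplasm, *KRT80* (97.4% exonic), *LMNB2* (94.0%), *LMNA* (87.2%) and *VIM* (85.0%) were mostly exonic, whereas *LMNB1* (14.5%), *KRT8* (11.7%), *KRT7* and *KRT18* (both without an exonic cluster) were mostly intronic. The 3 genes with the highest 3'UTR counts also have the longest 3'UTRs, 2745, 2402 and 975 nt. Per kb of 3'UTR, the order in the parental cytoplasm was *LMNA* (134 rpm per kb), *LMNB2* (84.7), *KRT80* (77.7) and *LMNB1* (12.9).

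**Figure D3:**
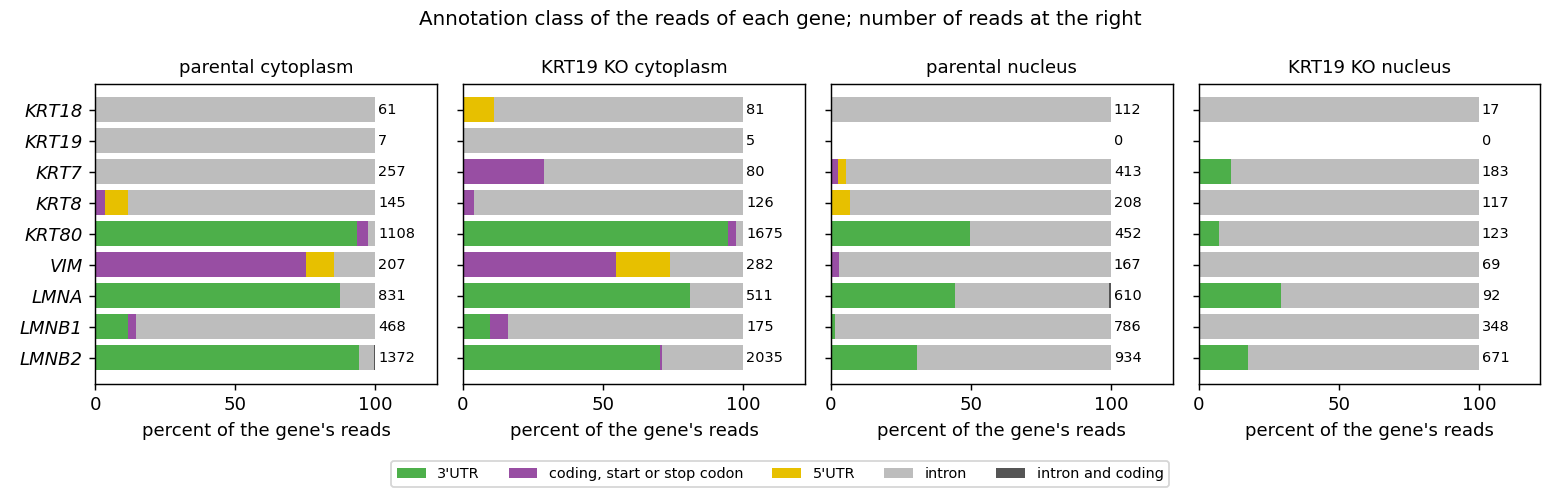
Percent of each gene's reads in each annotation class (x axis) by gene and library, with the number of reads at the right of each bar; an empty row means no cluster. *KRT80*, *LMNA* and *LMNB2* are mostly 3'UTR in both cytoplasms, *VIM* mostly coding and 5'UTR, and *KRT18*, *KRT7*, *KRT8* and *LMNB1* mostly intronic in all 4 libraries.

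*KRT19* KO and parental cells were compared within each fraction. A gene is called here when its rpm differs at least 2-fold, and only where both libraries of a pair together gave it 50 reads or more, which leaves 8 members, all but *KRT19*. In the cytoplasm, *KRT7* was lower in KO cells by 1.85 on the log2 scale (12.9 against 46.3 rpm; log2 interval -2.23 to -1.48) and *LMNB1* by 1.58 (28.2 against 84.3 rpm; -1.84 to -1.33). These were the 2 members called, beside 22.4% of 9378 genes at least 2-fold lower. None of the 8 was at least 2-fold higher, against 20.6% of genes. *LMNA* stood at a log2 ratio of -0.86 (-1.03 to -0.70) and *KRT8* at -0.37 (-0.72 to -0.01), while *KRT80* was at 0.43 (0.32 to 0.54), *LMNB2* at 0.41 (0.31 to 0.51), *VIM* at 0.28 (0.02 to 0.55) and *KRT18* at 0.25 (-0.25 to 0.75). The median was -0.06 over the members and -0.08 over all genes compared. The classes differed here over all genes: the median gene stood at 0.77 in exonic reads and at -0.74 in intronic reads. In intronic reads *KRT7* (-2.34) and *LMNB1* (-1.61) were at least 2-fold lower in KO cells, beside 39.3% of 6399 genes, and *LMNB2* (2.86) and *VIM* (1.09) at least 2-fold higher, beside 7.3%. In exonic reads *LMNB1* (-1.44, 28 against 68 reads) was the 1 of 5 members at least 2-fold lower, beside 11% of 5526 genes. *KRT80* stood at 0.43 in exonic reads, *VIM* at 0.08, *LMNB2* at -0.002 and *LMNA* at -0.975. All 5 thus lay below the median gene in exonic reads, at 0.77.

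In the nucleus all 8 members had fewer rpm in KO than in parental cells, and 6 were at least 2-fold lower, beside 18.2% of 9371 genes. *LMNA*, with 28.3 against 172 rpm, had a log2 ratio of -2.61 (-2.94 to -2.29). *KRT18*, with 5.23 against 31.7 rpm, stood at -2.60 (-3.43 to -1.86), and *KRT80*, with 37.8 against 128 rpm, at -1.76 (-2.06 to -1.47). *VIM* was at -1.15 (-1.58 to -0.74), *LMNB1* and *KRT7* both at -1.05, *KRT8* at -0.71 (-1.05 to -0.38) and *LMNB2* at -0.36 (-0.50 to -0.21). These intervals count all reads, although in the KO nucleus *LMNA* had 22 unique reads, *KRT18* 4 and *KRT80* 20. No member was 2-fold higher, against 14.4% of genes, and the members' median was -1.10 against -0.10 over all genes. The 6 became 3 (*KRT7*, *KRT80* and *LMNA*) when unique reads replaced reads, of 7 members that then reached 50 reads, and all 7 were still lower in KO cells. Scaled by the median ratio of genes, or without the top cluster of each gene and library, 4 were called (*KRT18*, *KRT80*, *VIM* and *LMNA*), and with T-to-C reads 5, all but *LMNB1*. Among exonic reads, 3 members had enough for a ratio, and all were at least 2-fold lower in the KO nucleus, beside 24.3% of 2407 genes. *KRT80* had 9 reads, from 1 unique read, against 224, *LMNA* 27 against 270 and *LMNB2* 118 against 286. In intronic reads the median of 7589 genes stood at -0.15. The members stood at -2.60 (*KRT18*), -2.245 (*LMNA*), -1.15 (*KRT7*), -1.11 (*VIM*), -1.03 (*LMNB1*), -0.88 (*KRT80*), -0.61 (*KRT8*) and -0.11 (*LMNB2*). The share of all genes at least 2-fold lower in intronic reads was not counted, so no member is called for this class.

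Cytoplasm and nucleus were compared within each cell line, using the same 4 libraries, so these ratios are not independent of those above. In parental cells *KRT18* (log2 ratio -1.53), *LMNB1* (-1.40), *KRT7* (-1.34) and *KRT8* (-1.17) were at least 2-fold lower in the cytoplasm, beside 34.8% of 9590 genes, and none was 2-fold higher, beside 18.8%. The median gene itself stood at -0.54. Relative to that median none of the 4 stayed 2-fold lower, and *KRT80*, at 0.64 (0.48 to 0.80) on the main scale, was 2-fold higher. *VIM*, *LMNA* and *LMNB2* lay at -0.34, -0.20 and -0.10 on the main scale, and at 0.24, 0.38 and 0.49 when scaled by the median ratio of genes, so their direction turned with the scaling. In *KRT19* KO cells *KRT80* (2.83, interval 2.57 to 3.11), *LMNA* (1.54), *KRT18* (1.32) and *VIM* (1.10) were at least 2-fold higher in the cytoplasm, beside 24.4% of 9458 genes, and *KRT7* (-2.13) and *LMNB1* (-1.93) at least 2-fold lower, beside 41.2%, with the median gene at -0.62. The *LMNA* ratio rests on its 3'UTR locus: without the cluster with the most reads of each gene and library it was -0.062. The call of *KRT18* was lost with clusters of at least 10 reads. With unique reads, and without the top clusters, *KRT18* had too few reads for a ratio. The call of *VIM* was lost with at least 2 converted positions, with unique reads and with T-to-C reads. *KRT7*, *LMNB1* and *KRT8* (-0.83 in KO cells), read mostly in introns, were on the nuclear side in both cell lines. *KRT18*, also read mostly in introns, was on the nuclear side in parental and on the cytoplasmic side in KO cells. *KRT80*, read mostly in its 3'UTR, was on the cytoplasmic side in both.

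**Figure D4:**
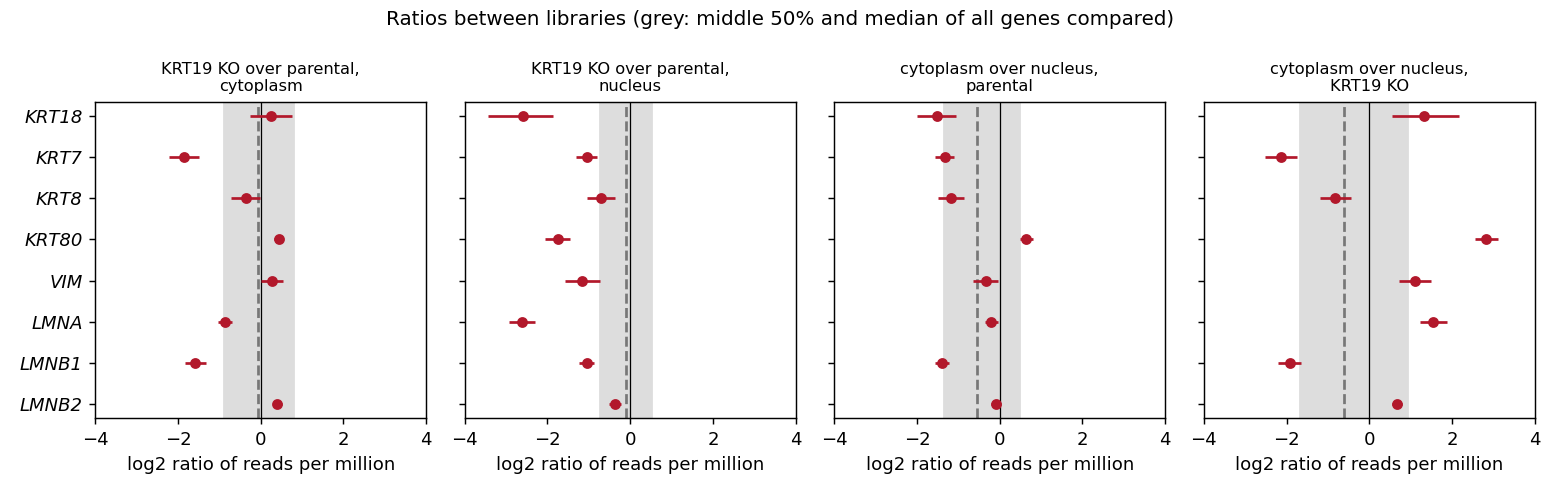
Log2 ratio of rpm (x axis) for 8 genes in 4 comparisons between pairs of libraries, points with exact 95% intervals of the counts; the grey band is the middle 50% of all genes compared and the dashed line their median. In the nucleus all 8 points lie below 0, and *LMNA*, *KRT18* and *KRT80* lie farthest left.

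The cytoplasm and the nucleus were also compared by class. In parental cells all 8 members had at least 2-fold fewer intronic rpm in the cytoplasm than in the nucleus, beside 51% of 7331 genes, with log2 ratios from -3.80 for *LMNB2* and -3.63 for *KRT80* to -1.25 for *KRT7* and *KRT8*. In *KRT19* KO cells 3 of 8 were, namely *LMNB1* (-2.18), *KRT7* (-2.44) and *KRT80* (-2.34), beside 74.7% of 6711 genes, and *KRT18* was 1 member at least 2-fold higher in the cytoplasm, with a log2 ratio of 1.15, beside 3.28% of genes. The intronic *LMNB2* ratio went from -3.80 in parental to -0.83 in KO cells, and the intron 2 site, which had no cluster in the parental cytoplasm, held 511 of the 593 intronic reads in the KO cytoplasm. Of exonic reads, 4 of 5 members with enough reads in parental cells were at least 2-fold higher in the cytoplasm, beside 72% of 4197 genes, *VIM* most with 176 against 5 reads. In KO cells 4 of 4 were, beside 80.2% of 4995 genes: *KRT80* had 1632 against 9 exonic reads, *LMNB2* 1442 against 118, *LMNA* 413 against 27, and *VIM* 208 against no exonic cluster in the nucleus.

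Few sites were shared by the libraries. Clusters that overlap on the same strand merge into 316 member loci, of which 234 (74.1%) were found in 1 library, 59 in 2, 22 in 3 and 1, the *LMNA* 3'UTR site, in all 4. Over all 592021 loci of the series, 77.4% were found in 1 library and 1.68% in all 4. Of 74 exonic member loci, 55 (74.3%) were found in the cytoplasm without a nuclear cluster, 11 (14.9%) in the nucleus without a cytoplasmic one and 8 (10.8%) in both. Over all 64089 exonic loci these shares were 68.0%, 16.2% and 15.8%. Of 242 intronic member loci, the numbers were 75 (31.0%), 121 and 46 (19.0%), and over all 350756 intronic loci the shares were 33.9%, 47.6% and 18.5%, so both kinds of member loci lay near the shares of the whole series. *LMNB1* had the most loci, 71, with 5 in 3 libraries, *KRT8* 51 with 1, *LMNB2* 48 with 4, *LMNA* 42, *KRT80* 40 with 5, *KRT7* 31 with 3, *VIM* 24 with 2 and *KRT18* 7 with 1.

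The strongest loci were often without a cluster in a single library. Of the 4 member loci with at least 100 reads in each of 3 libraries, 3 had none in the remaining library: *KRT80* at 1123 nt (missing in the *KRT19* KO nucleus), *LMNB2* at 225 nt (missing in the *KRT19* KO cytoplasm) and *LMNB2* intron 2 (missing in the parental cytoplasm). Across the series 235 of 766 such loci (30.7%) lacked a cluster in the remaining library. The tables list called clusters of at least 5 reads, so a missing cluster does not say how many reads lay there. A library without a cluster at a site that is strong in the others is therefore given here as it stands, and whether calling or binding differed was not tested.

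**Figure D5:**
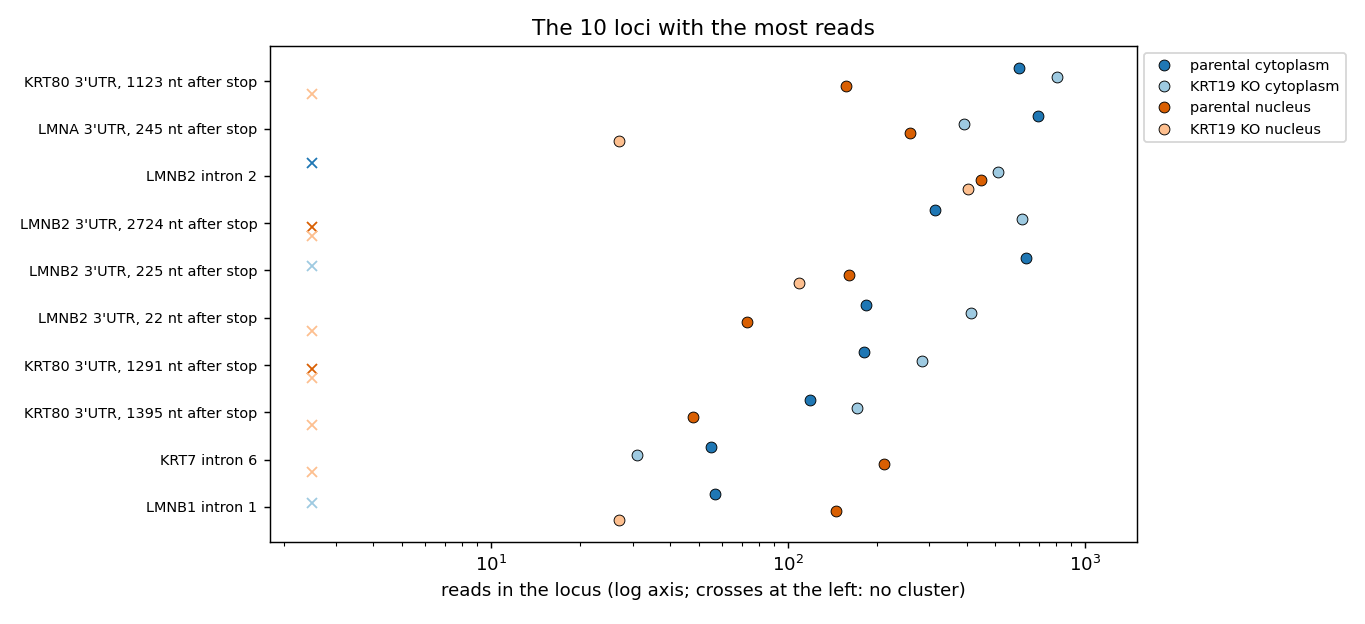
Reads (x axis, log) in the 10 member loci with the most reads over all libraries, 1 point per library; crosses at the left mark libraries without a cluster at the locus. Only the *LMNA* 3'UTR locus has points for all 4 libraries.

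T-to-C reads were 55.7% (54.2 to 57.1%) of member reads in the parental cytoplasm, 59.6% (58.2 to 60.9%) in the *KRT19* KO cytoplasm, 63.2% (61.6 to 64.7%) in the parental nucleus and 64.9% (62.5 to 67.2%) in the *KRT19* KO nucleus. Over all clusters these shares were 66.4%, 59.6%, 72.9% and 76.7%, so the members were lower in 3 libraries and level in the *KRT19* KO cytoplasm. Single large clusters lay on both sides of these shares: the *LMNB2* site at 225 nt had 41.0% in the parental cytoplasm and that in intron 2 had 30.9% in the *KRT19* KO nucleus, whereas the *KRT80* site at 1123 nt had 65.2% in the *KRT19* KO cytoplasm and 72.0% in the parental nucleus. Clusters of at least 100 reads held 53.1% of the member reads and 38.8% of all reads. Without the top cluster of each member gene and library, the member share lay above that of all clusters in both KO libraries. It stayed below it in both parental libraries. Over all libraries *LMNB2* had the lowest share (51.2%) and, among genes with more than 12 reads, *KRT8* the highest (78.5%). Of the 422 member clusters 105 rested on 1 unique read, and 195 had at least 2 converted positions.

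The motif CCC, searched on the RNA strand with overlapping matches counted once, was found in 44.8% (35.6 to 54.3%) of member clusters in the parental cytoplasm, 57.7% (47.3 to 67.7%) in the *KRT19* KO cytoplasm, 54.3% (45.3 to 63.2%) in the parental nucleus and 45.1% (34.1 to 56.5%) in the *KRT19* KO nucleus. All clusters of these libraries held it at 40%, 40.8%, 45.4% and 45.1%, inside the members' interval in 3 libraries and below it in the *KRT19* KO cytoplasm. For motifs with more letters before CCC, the share of all clusters lay inside the members' interval in each library. Among 3'UTR clusters over all libraries, CCC was in 64.3% (51.9 to 75.4%) for the members, 45 of 70, against 38.3% of 65788. Among clusters of at least 100 reads, 20 of 22 member clusters held CCC, against 58.2% of 17598 in the series. The 2 without it are the clusters of the last *LMNB2* site in the parental and *KRT19* KO cytoplasm. By gene the share went from 100% for *KRT18* (11 of 11) and 70.4% for *KRT80* to 28.6% for *LMNB1*. In all counts over several libraries, clusters of the same site repeat 1 sequence. Such clusters are not independent, so the 3'UTR interval over all libraries would be too narrow.

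The other genes of this system were read against fixed lists. Of 33 further intermediate filament genes, 5 had a cluster in any library. The most reads were on *KRT86*, a hair keratin gene next to *KRT7*, with 119, 98, 130 and 306 reads, on *BFSP1*, a lens filament gene, with 174, 37, 234 and 67, and on *KRT81*, another hair keratin gene, with 34, 96, 0 and 16. Of 6 plakin genes, whose proteins link intermediate filaments to other structures, 4 had clusters: *DST* had 4009, 2964, 3771 and 2797 reads, *DSP* 106, 965, 57 and 12, and *PLEC* 499 in the parental cytoplasm and no cluster elsewhere. All 12 nuclear envelope partners of lamins had clusters, with the most reads on *TMPO* (967, 2497, 319 and 577), *LBR* (1380, 1307, 166 and 79) and *ICMT* (1222, 1516, 13 and 49), the last a processing enzyme of prelamin A. In the KO nucleus against the parental nucleus, 9 envelope genes had enough reads, of which none was at least 2-fold lower and 1 was higher, beside 18.2% and 14.4% of all genes. In the cytoplasm 8 had enough, with 1 at least 2-fold lower and 2 higher, beside 22.4% and 20.6%. The plakin genes counted 2 lower and 0 higher of 3 in the nucleus and 1 lower and 1 higher of 3 in the cytoplasm. The further filament genes counted 1 lower and 1 higher of 2 in the nucleus and 2 lower and 1 higher of 4 in the cytoplasm.

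By pattern over the 4 libraries, *ASPM* and *ATP2B1* were the nearest to *LMNB2* among 9742 genes with at least 100 reads, at Euclidean distances of 0.111 and 0.129 in centred log2 rpm. *ASPM* had 320, 451, 331 and 281 rpm, against 247, 327, 264 and 206 for *LMNB2*. Clusters of other names near the members were few. *KRT18P55*, a pseudogene of *KRT18*, had 11 reads in the *KRT19* KO cytoplasm and 8 in the parental nucleus, and the antisense gene *VIM-AS1* had 15, 20, 28 and 48 reads. Within the member spans, 2 clusters named *KRT86* with 37 reads lay on the strand of *KRT7*, 1 *KRT8* cluster of 14 reads lay opposite *KRT18*, and 5 clusters with 102 reads, named *KRT18* or without annotation, lay opposite the long *KRT8* transcripts.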

How the data were processed

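HNRNPK PAR-CLIP was measured in 4 libraries, 1 per condition, grouped by the labels' titles; the 17 RNA-seq samples of the series were not analysed here. The authors demultiplexed the reads with Bcl2fastq 2.20.0 and cutadapt, collapsed copies with the help of molecular identifiers, and mapped them to hg19; PARpipe, which runs PARalyzer, gave the clusters and their annotation. RNase T1, used in the protocol, cuts after G, which shapes cluster ends. The authors deposited raw counts of reads, unique reads, converted positions and T-to-C reads for each cluster, without normalization. The labels name hg38, but all 422 member sequences equal GRCh37 at their positions. How reads that fit several places were handled is not given in the sources used here. The deposited read counts after collapsing are not counts of molecules.

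Members were chosen, and lists and alternatives set, with earlier results of these data known. Named here were all 9 members, their clusters with the most reads and loci in all libraries, genes among the 5 nearest to the member with the most reads, and the 3 genes with the most reads of each list; some items this rule selects are not reported here. Loci were compared further, and the strong loci and the *LMNB2* site with AATAAA named, after their values were seen. Reads were summed by gene and scaled to all reads in clusters, and a ratio set a count below 3 reads to 3. Intervals at 95% are exact Poisson, Clopper-Pearson or conditional binomial. Start and stop codon clusters counted as exonic, and 2 member clusters across an intron and coding sequence as neither. Genes, introns and UTRs were placed by GENCODE v44 lifted to GRCh37, with the canonical transcript. The code for ratios and intervals was run on simulated independent Poisson counts, and that for merging of loci on planted positions. The simulation held no copied reads and no uncalled clusters, so it cannot show how the intervals perform with those. Alternatives covered the minimum of reads or converted positions, leaving out each member's top cluster, unique or T-to-C reads, the library total, the minimum per gene, the weights, the overlap and the motif. Versions were Python 3.11.15, numpy 2.4.6, matplotlib 3.10.9, scipy 1.17.1 and pandas 2.3.3.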

Additional observations from a re-analysis of the deposited data

Results flagged for a closer look

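Each result below has 1 library per condition and was picked out because the log2 ratios of the same gene in a pair of settings had intervals of counting error on opposite sides of 0. The difference itself was not tested, and the ratios share libraries.

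For *KRT18* the cytoplasm over nucleus ratio was -1.53 for parental and 1.32 for KO cells, a difference of -2.84, and 17 reads stood behind the KO nucleus. For *KRT80* the KO over parental ratio was 0.43 in the cytoplasm and -1.76 in the nucleus, a difference of 2.19. For *VIM* the KO over parental ratio was 0.28 in the cytoplasm and -1.15 in the nucleus (difference 1.44), and the cytoplasm over nucleus ratio was -0.34 for parental and 1.10 for KO cells (difference -1.44). For *LMNA* the cytoplasm over nucleus ratio was -0.20 for parental and 1.54 for KO cells, a difference of -1.74, in which the 3'UTR locus has most of the cytoplasmic reads. Scaled by the median ratio of genes, the parental ratios of *VIM* and *LMNA* were 0.24 and 0.38, so on that scale neither gene had opposite directions in parental and KO cells. For *LMNB2* the KO over parental ratio was 0.41 in the cytoplasm and -0.36 in the nucleus, a difference of 0.762. In exonic reads alone the cytoplasmic *LMNB2* ratio was -0.002, with 1442 against 1290 reads. The intron 2 site had 511 reads in the KO cytoplasm and no cluster in the parental cytoplasm. Whether calling or binding differed at this site was not tested.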

How the results depend on the processing

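No paired analysis was possible because each PAR-CLIP condition has 1 library. Values below are in the order parental cytoplasm, *KRT19* KO cytoplasm, parental nucleus and *KRT19* KO nucleus unless named, only values that moved beyond counting error are given, and the cause was not tested. With clusters of at least 10 reads, the members had 848, 829.8 and 1152 rpm in the first 3 libraries, 79.8% and 78.2% exonic reads in the cytoplasms, T-to-C shares of 52.7%, 57.7%, 60.6% and 58.6%, and summed log2 ratios of -1.19 for KO over parental in the nucleus and -0.44 for cytoplasm over nucleus in parental cells. With at least 2 converted positions, they had 872, 827, 1465 and 662 rpm, exonic shares of 81.1%, 78.0%, 26.9% and 13.1%, T-to-C shares of 52.9%, 58.5% and 49.3% in the parental cytoplasm and both nuclei, and summed ratios of -0.077 (KO over parental, cytoplasm), -0.75 (cytoplasm over nucleus, parental) and 0.32 (the same, KO). Without the cluster with the most reads of each gene and library, they had 412.5, 474, 653 and 299.5 rpm, exonic shares of 59.4%, 63.9%, 18.2% and 15.2%, T-to-C shares of 63.35%, 62.45%, 68.4% and 79.8%, and summed ratios of 0.20 (KO over parental, cytoplasm) and -0.66 (cytoplasm over nucleus, parental), and the *LMNA* ratio in KO cells turned from 1.54 to -0.062. With unique reads, the members had 879 rpm in the parental cytoplasm and 532 in the KO nucleus, summed ratios of -0.11 and -0.94 for KO over parental in cytoplasm and nucleus and -0.22 for cytoplasm over nucleus in parental cells, and 3 in place of 6 members at least 2-fold lower in the KO nucleus. With T-to-C reads they had 672, 902.5 and 421 rpm in the parental cytoplasm and both nuclei, and summed ratios of 0.25 (KO over parental, cytoplasm) and 0.92 (cytoplasm over nucleus, KO). With totals without mitochondrial clusters and the 10 top clusters, they had 929.5 and 876 rpm in the cytoplasms and summed ratios of -0.085 (KO over parental, cytoplasm) and -0.19 (cytoplasm over nucleus, parental). Scaled by the median ratio of genes, the summed ratios were -0.96 (KO over parental, nucleus), 1.34 (cytoplasm over nucleus, KO) and 0.21 (the same, parental), the last against -0.37 on the main scale, and 1 in place of 4 members was past 2-fold in parental cells. By clusters in place of reads the exonic shares were 31.9%, 44.3%, 12.6% and 6.10%. By reads in place of clusters, CCC was in 71.2%, 74.2%, 70.3% and 57.8%, and with motifs that ask for more letters before CCC in 20.7%, 24.7%, 25.2% and 18.3% or 29.3%, 36.1%, 37.8% and 30.5%. All clusters held these longer motifs at 18.6%, 18.1%, 20.8% and 21.1% or 29.8%, 30.1%, 32.9% and 33.6%. Those shares lie inside the members' intervals in each library, also in the *KRT19* KO cytoplasm. In every alternative run, each member with a value had a ratio below 0 for KO over parental in the nucleus, *KRT80* and *LMNA* were at least 2-fold lower there, and *KRT7* and *LMNB1* were at least 2-fold lower in the KO cytoplasm. Single-member ratios changed sign in 8 cases, 1 of them (*LMNA*, above) a ratio past 2-fold. The others were *VIM* (0.24), *LMNA* (0.38) and *LMNB2* (0.49) for cytoplasm over nucleus in parental cells under the median ratio, *LMNB2* there with unique reads (0.20) and with the reduced totals (0.091), *LMNB2* in KO cells with at least 2 converted positions (-0.16), and *KRT18* for KO over parental in the cytoplasm with clusters of at least 10 reads (-0.14). Under 50 reads in a pair of libraries no ratio was given.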
